A study of Mus musculus with 6 samples.

Results

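DNA methylation is written by the DNMT proteins and removed through the TET enzymes, and H3K4me3, a histone mark of promoters, was examined here at 8 mouse genes that carry out these steps, Dnmt1, Uhrf1, Dnmt3a, Dnmt3b, Dnmt3l, Tet1, Tet2 and Tet3. They are 8 of 21951 protein-coding genes in the annotation, and they were chosen by name for their role, with earlier results of these data known but with no threshold on their values. A gene was counted as marked in a cell line when a listed H3K4me3 peak lay within 2500 bp of any of its annotated transcription start sites (TSSs), by at least 1 bp.

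H3K4me3 was profiled by chromatin immunoprecipitation and sequencing in a pair of mouse lymphoid progenitor lines. Scid.adh.2C2 is a pro-T cell line derived from a tumour of a CB17-Prkdc<scid> mouse. The other is a progenitor B cell line transformed with the Abelson virus, which the study describes both as pre-B and as pro-B. It is called the pro-B line below. The labels name no further treatment or allele for either. Each line has 2 H3K4me3 libraries and 1 input library, 6 in all, from which the authors made 1 peak list per line.

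The lists hold no value per replicate and no read depth, and each lineage is represented by 1 transformed line. Differences between the lines are therefore descriptions without a replicate error and without a test, and lineage, line and transformation cannot be told apart. A promoter without a listed peak is one where no peak passed the thresholds, not one shown to lack the mark. A low fold enrichment can come from fewer cells with the mark or from less mark per cell, and these cannot be told apart in bulk chromatin. Nor can H3K4me3 alone separate an active promoter from a poised one that also carries H3K27me3.

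Dnmt1 copies methylation onto the new strand after replication, and Uhrf1 binds hemimethylated CpG sites and recruits it there. Dnmt3a and Dnmt3b methylate unmethylated CpG sites, while Dnmt3l is a catalytically inactive partner that stimulates both and is known from germ cells and early embryos. Tet1, Tet2 and Tet3 oxidise methylated cytosine as the first step of its removal, and Tet2 and Dnmt3a are among the genes most often mutated in blood cancers. H3K4me3 is typically found at promoters rich in CpG, and the Dnmt3 proteins bind histone H3 poorly when it carries this mark.

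The bases just before a TSS are given for 8 start sites on which the results turn: the Dnmt1 start under the highest peak among these genes, the upstream and internal starts of Dnmt3a and of Tet3, the starts of Dnmt3b and Tet2 that carried a peak in 1 line only, and the internal Tet1 start. Each run holds the 250 bases before the TSS, read 5′ to 3′ on the strand of the gene from the RefSeq assembly GRCm38.p6. CpG sites are in capitals.
Dnmt1 (chr9:20952980-20953229, minus strand): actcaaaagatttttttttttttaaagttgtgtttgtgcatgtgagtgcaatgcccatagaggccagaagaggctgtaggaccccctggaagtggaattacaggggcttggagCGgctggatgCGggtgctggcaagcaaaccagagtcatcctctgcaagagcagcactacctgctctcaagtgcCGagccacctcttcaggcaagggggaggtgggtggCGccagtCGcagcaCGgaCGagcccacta
Dnmt3a, upstream (chr12:3806780-3807029, plus strand): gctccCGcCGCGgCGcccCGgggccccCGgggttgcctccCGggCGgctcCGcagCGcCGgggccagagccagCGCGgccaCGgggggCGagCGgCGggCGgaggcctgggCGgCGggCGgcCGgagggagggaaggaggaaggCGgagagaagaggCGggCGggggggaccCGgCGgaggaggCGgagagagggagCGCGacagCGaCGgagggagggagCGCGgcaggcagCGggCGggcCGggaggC
Dnmt3a, internal (chr12:3891478-3891727, plus strand): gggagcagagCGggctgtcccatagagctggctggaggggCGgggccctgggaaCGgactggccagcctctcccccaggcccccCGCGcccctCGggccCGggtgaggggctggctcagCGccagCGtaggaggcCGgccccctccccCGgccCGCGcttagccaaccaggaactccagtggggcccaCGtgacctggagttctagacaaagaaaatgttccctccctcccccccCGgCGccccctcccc
Dnmt3b (chr2:153649204-153649453, plus strand): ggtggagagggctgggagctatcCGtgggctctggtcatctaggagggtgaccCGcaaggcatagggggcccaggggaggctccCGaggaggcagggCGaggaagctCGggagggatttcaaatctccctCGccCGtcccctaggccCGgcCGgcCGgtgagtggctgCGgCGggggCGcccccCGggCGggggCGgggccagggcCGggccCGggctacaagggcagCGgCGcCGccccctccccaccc
Tet1, internal (chr10:62865305-62865554, minus strand): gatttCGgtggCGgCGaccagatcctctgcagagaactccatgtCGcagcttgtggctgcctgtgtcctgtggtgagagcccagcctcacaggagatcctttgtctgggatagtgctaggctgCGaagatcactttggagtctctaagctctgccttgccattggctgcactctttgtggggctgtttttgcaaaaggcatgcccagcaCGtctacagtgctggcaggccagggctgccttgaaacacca
Tet2 (chr3:133544369-133544618, minus strand): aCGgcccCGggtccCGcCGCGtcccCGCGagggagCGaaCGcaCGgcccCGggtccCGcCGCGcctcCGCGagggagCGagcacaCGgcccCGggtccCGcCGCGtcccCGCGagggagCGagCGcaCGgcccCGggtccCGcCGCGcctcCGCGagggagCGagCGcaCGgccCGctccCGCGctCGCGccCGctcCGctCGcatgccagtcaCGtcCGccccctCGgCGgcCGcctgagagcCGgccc
Tet3, upstream (chr6:83456393-83456642, minus strand): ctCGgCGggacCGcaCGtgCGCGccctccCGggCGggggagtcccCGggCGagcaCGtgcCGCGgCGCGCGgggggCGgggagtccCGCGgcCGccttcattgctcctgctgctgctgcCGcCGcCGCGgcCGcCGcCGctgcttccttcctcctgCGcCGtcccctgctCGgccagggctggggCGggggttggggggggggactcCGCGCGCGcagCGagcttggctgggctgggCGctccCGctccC
Tet3, downstream (chr6:83441676-83441925, minus strand): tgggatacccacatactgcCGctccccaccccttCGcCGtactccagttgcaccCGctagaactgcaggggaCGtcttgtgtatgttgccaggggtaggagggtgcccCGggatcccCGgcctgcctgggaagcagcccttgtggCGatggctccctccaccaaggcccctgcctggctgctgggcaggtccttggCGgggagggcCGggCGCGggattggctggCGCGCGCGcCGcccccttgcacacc
The Tet2 stretch and the upstream stretches of Dnmt3a and Tet3 are dense in capitals, with 37 to 50 CpG sites. The Dnmt1 stretch has 7 and the internal Tet1 stretch 6.

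In Scid.adh.2C2, 6 of the 8 genes were marked, Dnmt1, Uhrf1, Dnmt3a, Dnmt3b, Tet1 and Tet3, beside 45.5% of all protein-coding genes. In the pro-B line, 6 were marked, Dnmt1, Uhrf1, Dnmt3a, Tet1, Tet2 and Tet3, beside 48.2%. Hence 5 genes were marked in both lines, Tet1 by a peak of the pro-B line that did not reach its TSS, and each line lacked a listed peak at 1 gene that the other had. Dnmt3b had one in Scid.adh.2C2 only, a pattern found at 3.28% of protein-coding genes, and Tet2 in the pro-B line only, found at 5.96%. Dnmt3l had a promoter peak in neither line.

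The fold enrichment is the peak caller's ratio of ChIP signal over background at the peak summit. It ran higher in the Scid.adh.2C2 list, where the highest promoter peak of a marked gene had a median of 27.1, than in the pro-B line list, where the median was 21.7. Of the 5 genes marked in both lines, 4 had the higher fold in Scid.adh.2C2 (Dnmt1, Dnmt3a, Tet1 and Tet3), and so did 76.1% of all 9261 genes marked in both. The count is thus close to the background, and Uhrf1 was the exception. The highest peak was wider in Scid.adh.2C2 at Dnmt1, Dnmt3a and Tet1, or 3 of the 5 genes. This stands beside 31.5% of all genes marked in both lines. At Tet3 the highest peak lay at a different start in each line. At its shared upstream start the fold was also higher and the peak also narrower in Scid.adh.2C2. Percentiles below are the place of a gene's highest promoter peak among the genes marked in the same list, 9980 in Scid.adh.2C2 and 10570 in the pro-B line.

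**Figure D1:**
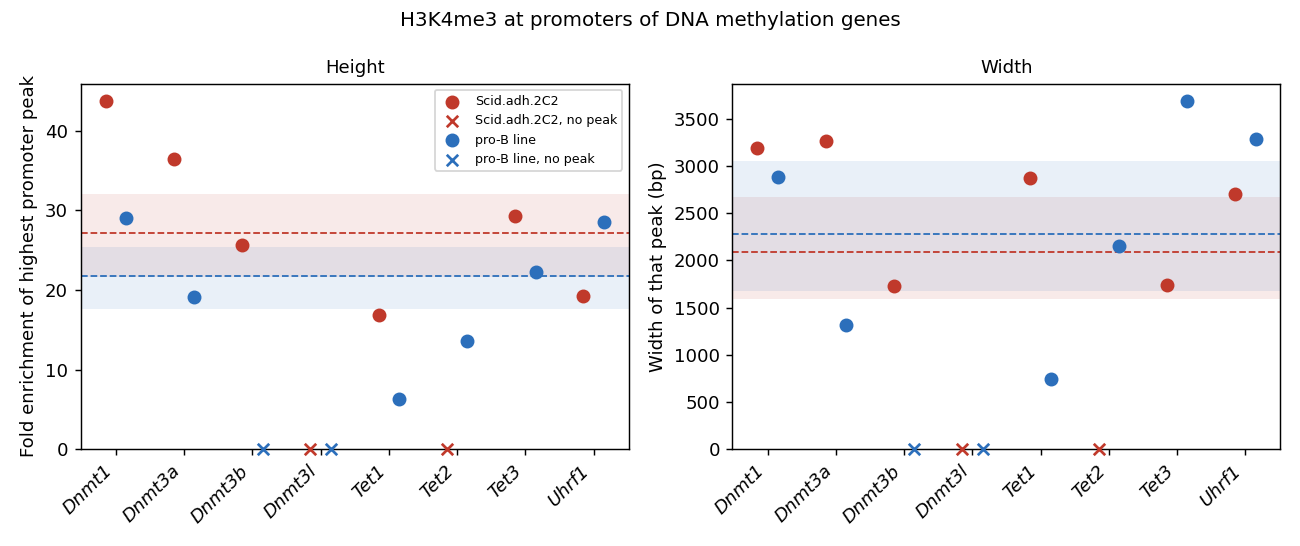
Fold enrichment (left) and width in bp (right) of the highest H3K4me3 promoter peak at each of the 8 genes, with Scid.adh.2C2 in red and the pro-B line in blue. Each point is 1 peak of a combined list and has no error bar, a cross at 0 stands for no listed peak, dashed lines are the medians over marked protein-coding genes (27.1 and 21.7 for the fold, 2091 and 2278 bp for the width) and bands their quartiles. In fold, Dnmt1 lies above the band of its line in both lines, while Uhrf1 lies below it in Scid.adh.2C2 and above it in the pro-B line. In width, Dnmt1 lies above the band in Scid.adh.2C2 and inside it in the pro-B line.

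Of the maintenance genes, Dnmt1 had the highest peak of the 8 genes in both lines. Dnmt1 (ENSMUSG00000004099, chr9:20907209-20959888, minus strand, GRCm38) had a peak of 43.7-fold in Scid.adh.2C2, 3187 bp wide, and of 29.0-fold in the pro-B line, 2888 bp wide. These peaks stood at percentile 99.0 and 91.3, and the Scid.adh.2C2 peak ranked 84 of 15513 in its list, so the gene was near the top in each. Their difference was 0.59 on the log2 scale, against a median of 0.32 and quartiles of 0.01 and 0.59 over all genes marked in both lines. The summits were 16 bp apart in exon 1 of the transcript for the 1620-residue protein, and both peaks contained its TSS and those of the 1502- and 1501-residue forms. Dnmt1 is known to have an alternative first exon used in oocytes that lies upstream of the somatic one. The upstream TSS at position 20959888, for a further 1501-residue form, had no peak in either line, the nearest listed peak being 6169 bp away in Scid.adh.2C2 and 6563 bp away in the pro-B line. The IDR score, which grades how alike the replicates rank a peak and reaches 1000, was 840 for the Dnmt1 peak in Scid.adh.2C2, while 14513 of that list's 15513 peaks scored 1000.

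Uhrf1 (ENSMUSG00000001228, chr17:56303321-56323486, plus strand) went the other way. Its peak was 19.3-fold and 2702 bp wide in Scid.adh.2C2, and 28.6-fold and 3285 bp wide in the pro-B line. The percentiles were 17.1 and 90.0, so that the gene stood low in one list and high in the other. The log2 difference of -0.57 lay at percentile 4.74 of all genes marked in both lines. Both peaks covered the same 5 TSSs, and their summits, 60 bp apart, fell in intron 1. They also reached into the promoter window of the neighbouring Arrdc5, an arrestin-domain gene on the opposite strand.

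The de novo gene Dnmt3a (ENSMUSG00000020661, chr12:3806007-3914443, plus strand) was marked at both its upstream and its internal promoter in both lines, with folds that were close between the lines upstream and apart at the internal promoter. The upstream starts give the 908-residue protein, known as Dnmt3a1. Their peak was 17.4-fold and 2528 bp wide in Scid.adh.2C2 and 18.5-fold and 3056 bp wide in the pro-B line, a log2 difference of -0.094. A pair of internal starts lies 84714 and 84698 bp downstream, in intron 6 of the longer form, and give the 689-residue form known as Dnmt3a2, which lacks 219 residues at the N-terminus. There the peak was 36.5-fold and 3269 bp wide in Scid.adh.2C2 and 19.14-fold and 1321 bp wide in the pro-B line. In Scid.adh.2C2 the internal peak was thus the higher and wider of the 2, whereas in the pro-B line the folds were close and the internal peak the narrower.

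The internal Dnmt3a peak also differed in shape. In Scid.adh.2C2 it reached from 1285 bp before its nearest TSS to 1983 bp after it, with the summit 570 bp downstream. In the pro-B line it reached from 1025 bp before to 295 bp after, with the summit at -589 bp, upstream of the TSS, so little of it lay over the transcribed side. Among the 9674 pairs of overlapping peaks of the lists, the log2 difference in fold of 0.93 stood at percentile 90.9, that in width of 1.31 at percentile 99.4 and the summit distance of 1175 bp at percentile 94.6. For the upstream pair the fold difference stood at percentile 23.9, and the summits were 170 bp apart.

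**Figure D2:**
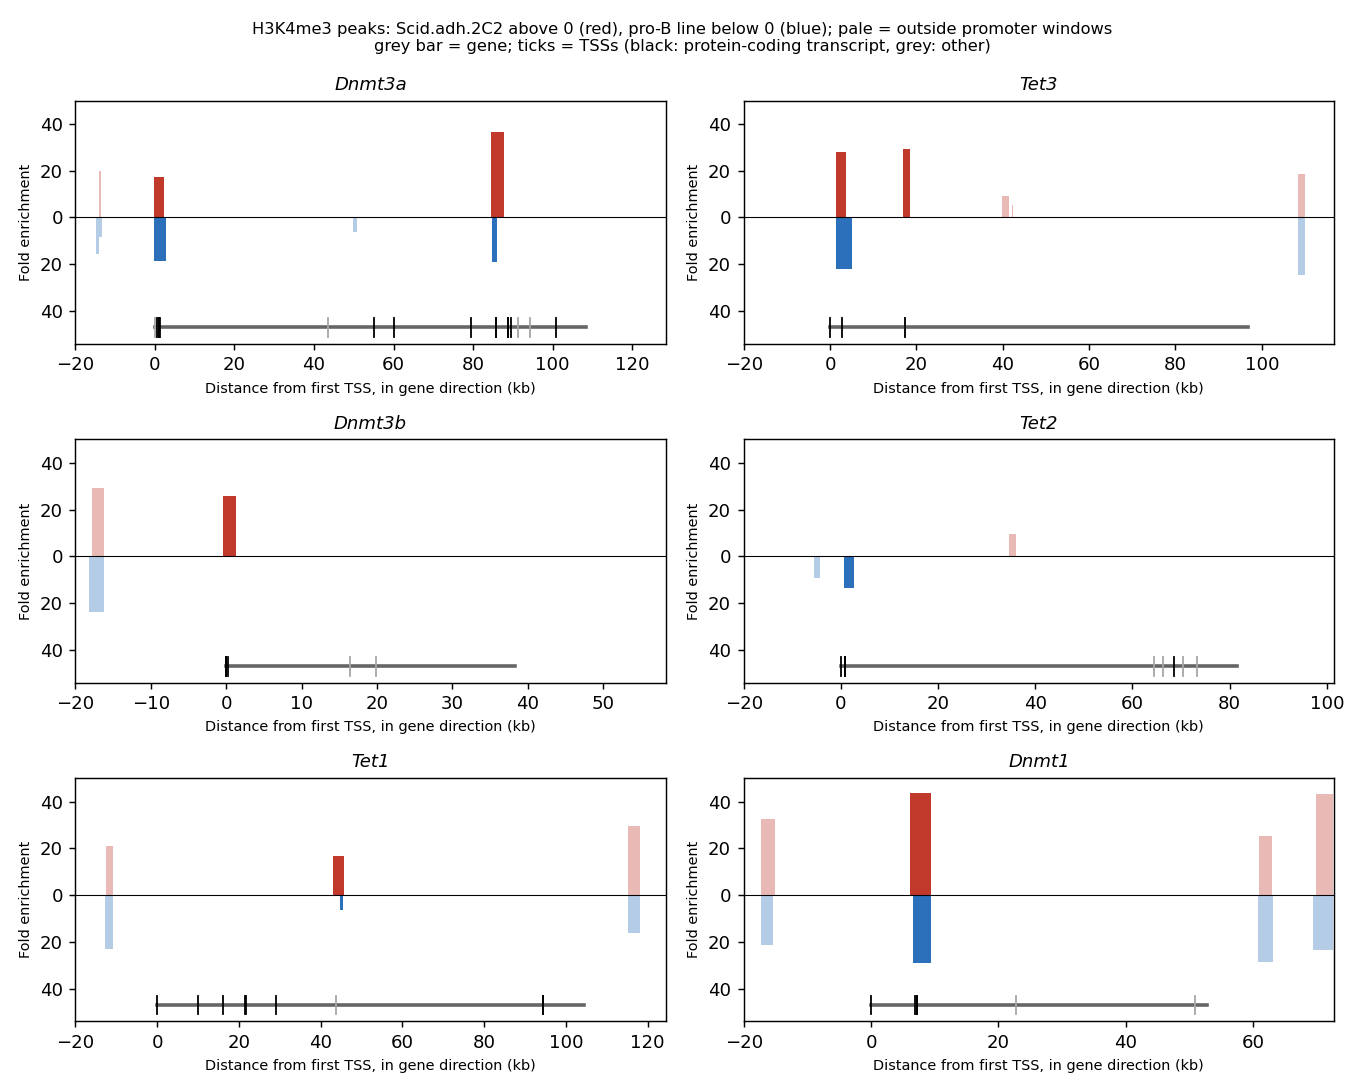
H3K4me3 peaks along Dnmt3a, Tet3, Dnmt3b, Tet2, Tet1 and Dnmt1, plotted by distance in kb from the first TSS in the direction of the gene, with fold enrichment upward for Scid.adh.2C2 (red) and downward for the pro-B line (blue). Pale bars are peaks outside the gene's promoter windows, the grey line is the gene and ticks are TSSs, black for protein-coding transcripts. Dnmt3a shows a pair of promoter peaks in both lines, and Tet3 a second one (29.4-fold) in Scid.adh.2C2 only.

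Dnmt3b (ENSMUSG00000027478, chr2:153649450-153687730, plus strand) was marked in Scid.adh.2C2 and not in the pro-B line. Its peak, chr2:153648963-153650691, was 25.6-fold, at percentile 42.6 and so near the middle of the marked promoters, and 1729 bp wide. It contained 4 TSSs, including those of the 860-residue form, and it is shared with Dnmt3bos, an antisense transcript over the same start, so the signal cannot be given to one of them. In the pro-B line the nearest listed peak was 16166 bp away, at the promoter of the upstream neighbour Commd7, where both lines had a peak (29.2-fold in Scid.adh.2C2 and 24.0-fold in the pro-B line). Dnmt3l (ENSMUSG00000000730, chr10:78041947-78063622, plus strand) had no peak near its 6 TSSs. The nearest listed peak was 22703 bp from a TSS in Scid.adh.2C2 and 7132 bp in the pro-B line. Of 20 genes expressed in nearly every cell, 18 were marked in Scid.adh.2C2 and 19 in the pro-B line, so that few lacked a listed peak. Ywhaz was marked in the pro-B line only (26.8-fold), and Srsf1, a splicing factor gene, in neither line. A listed peak can thus be missing in 1 line or both at such genes too.

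Of the TET genes, Tet3 had the higher peaks. Tet3 (ENSMUSG00000034832, chr6:83362373-83459084, minus strand) has an upstream start for the 1803-residue form, which carries a CXXC domain, and a start 14717 bp downstream for a form of 1668 residues. At the upstream start the peak was 27.8-fold and 2318 bp wide in Scid.adh.2C2 and 22.2-fold and 3687 bp wide in the pro-B line. The log2 difference of 0.32 was at percentile 53.8 of overlapping pairs, in the middle, but the summits were 936 bp apart, at 45 bp from the TSS in Scid.adh.2C2 and at -891 bp, upstream of it, in the pro-B line. At the downstream start Scid.adh.2C2 had a further peak, chr6:83440454-83442188, of 29.4-fold and 1735 bp, while in the pro-B line the nearest listed peak was 12418 bp away. This peak is shared with B230319C09Rik, a noncoding gene that runs the other way from there. The -log10 q of the gene's highest peak was 116 in both lines when rounded, although the folds differed (29.4 against 22.2). These peaks lie at different starts, that of Scid.adh.2C2 downstream and that of the pro-B line upstream. Between the peaks at the shared upstream start, the pro-B line had the higher -log10 q, 116 against 97.7 for Scid.adh.2C2. By this measure the direction was thus opposite to that of the fold at the same start (27.8 for Scid.adh.2C2 against 22.2).

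Separate promoter peaks at 2 places were found in Scid.adh.2C2 at 2 of the 8 genes (Dnmt3a and Tet3), beside 11.7% of protein-coding genes with 2 or more promoter peaks, and in the pro-B line at 1 (Dnmt3a), beside 16.0%. When TSSs within 1000 bp were joined into groups, the same 2 genes and 1 gene had at least 2 groups inside peaks, beside 3.36% in Scid.adh.2C2 and 4.94% in the pro-B line. The 8 genes have 39 such groups and all 21951 protein-coding genes 48620, so the 8 have more per gene. More groups give more places for a peak, and the shares are not matched for this. With 8 genes, 1 gene more or fewer moves these shares widely.

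Tet1 (ENSMUSG00000047146, chr10:62804570-62908996, minus strand) was marked away from the starts of its coding transcripts in both lines. The peak lay at position 62865304, the TSS of a transcript annotated as noncoding that starts inside the gene. It was 16.9-fold and 2873 bp wide in Scid.adh.2C2, where its summit was 122 bp after this TSS. In the pro-B line it was 6.28-fold and 739 bp wide and ended 1155 bp from the TSS, so it did not contain it. The percentiles were 11.3 and 0.265, both low. The log2 difference of 1.43 stood at percentile 98.7 of all genes marked in both lines, and the log2 width difference of 1.96 at percentile 99.4. Both rest on the weak pro-B line peak, and Tet1 was no longer marked there with a window of 1000 bp, with peaks of at least 10-fold or with equal numbers of peaks, nor in either line with TSSs of protein-coding transcripts only. A marked gene with no peak at any coding TSS was uncommon, at 0.979% of protein-coding genes in Scid.adh.2C2 and 1.03% in the pro-B line, and Tet1 was the 1 such gene of the 8 in each line. The start of the 2039-residue form, at position 62899118, was 20769 bp from a listed peak in Scid.adh.2C2 and 20799 bp in the pro-B line. For the 2007-residue form, at position 62880014, the distances were 13980 and 15865 bp.

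Tet2 (ENSMUSG00000040943, chr3:133463679-133545139, minus strand) was marked in the pro-B line and not in Scid.adh.2C2. Its peak in the pro-B line, chr3:133542343-133544499, was 13.6-fold, at percentile 10.4 and so in the lower part of that list, and 2157 bp wide. The summit lay in intron 1, 964 bp after the nearest TSS, and the peak contained 4 TSSs, including those of the 1920- and 1912-residue forms. It also lay in the promoter window of Gm42567, an antisense gene. A further pro-B line peak of 9.19-fold lay upstream, 4328 bp from the nearest TSS and so outside the window. In Scid.adh.2C2 the nearest listed peak was 33782 bp from this promoter, inside intron 2, with 9.60-fold.

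**Figure D3:**
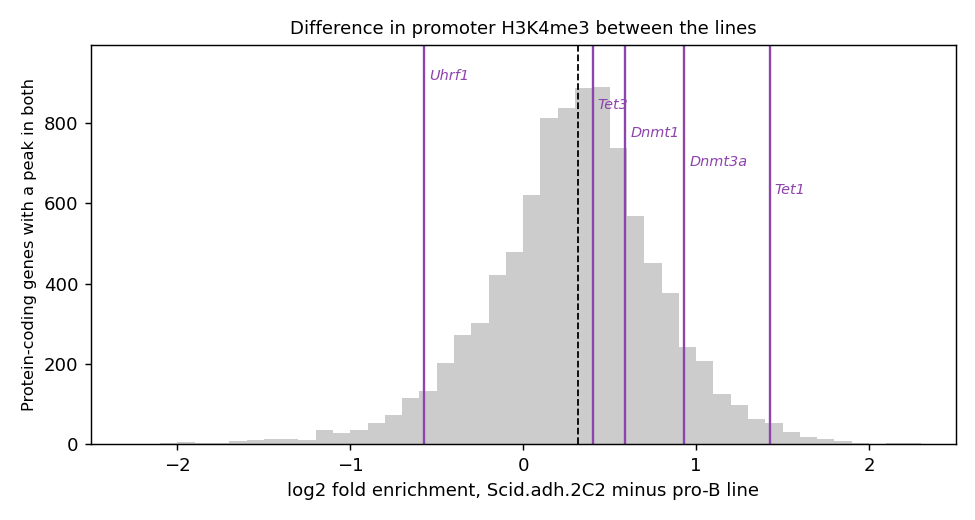
Difference in log2 fold enrichment of the highest promoter peak, Scid.adh.2C2 minus the pro-B line, for the 9261 protein-coding genes with a promoter peak in both lines (grey, number of genes per bin of the log2 difference), with the 5 genes of DNA methylation as purple lines and the median (0.32) dashed. Uhrf1 (-0.57) and Tet1 (1.43) lie toward opposite ends of the distribution, and Tet3 (0.40) near its middle. The Tet3 value sets the downstream peak of Scid.adh.2C2 against the upstream peak of the pro-B line. Between the peaks at the upstream start the difference was 0.32.

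CpG content was not used to choose the genes and was compared with their marking. In the 300 bp around each start (250 before and 50 after the TSS, both strands alike), the ratio of observed to expected CpG was 1.20 at the Tet2 start, 1.05 at the upstream Dnmt3a start and 0.93 at the upstream Tet3 start. It was 0.71 at the Dnmt3b start, 0.57 at the downstream Tet3 start, 0.50 at the Dnmt1 start, 0.45 at the internal Dnmt3a start, 0.43 at the Uhrf1 start and 0.27 at the internal Tet1 start. For reference, the median was 0.78 over 9239 TSS groups of protein-coding genes inside peaks of both lines and 0.24 over 36541 groups inside no peak. The order by CpG was not the order by fold. Tet2, with the densest start in 300 bp, had a 13.6-fold peak in the pro-B line and none in Scid.adh.2C2. Dnmt1, with an intermediate start, had the highest peak. In 1000 bp centred on the TSS the upstream Dnmt3a start had the highest ratio, 0.98 against 0.93 at Tet2.

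The 8 genes have 39 TSS groups. Of these, 5 lay inside peaks of both lines, with 11 to 51 CpG sites in 300 bp, 3 inside a peak of Scid.adh.2C2 only, with 6 to 31, 1 inside a peak of the pro-B line only, with 54, and 30 inside no peak, with 0 to 12. A ratio of at least 0.6, a usual limit for CpG islands, was reached by 2 of the 5 groups inside peaks of both lines, beside 75.6% of such groups over all protein-coding genes. It was reached by 1 of the 3 groups inside a peak of Scid.adh.2C2 only, beside 49.8%, and by the 1 group inside a peak of the pro-B line only, beside 38.1%. Of the 30 groups inside no peak 1 reached it, a Tet1 start at position 62887512 with a ratio of 0.67, beside 9.29%. In 1000 bp centred on the TSS this start had 0.55, and the Tet1 start at position 62880014 had 0.63 (0.47 in 300 bp). Starts of the same gene are not independent of each other. The shares over all protein-coding genes rest on the most upstream TSS of each group, unlike those of the 8 genes, so they are a rough reference.

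**Figure D4:**
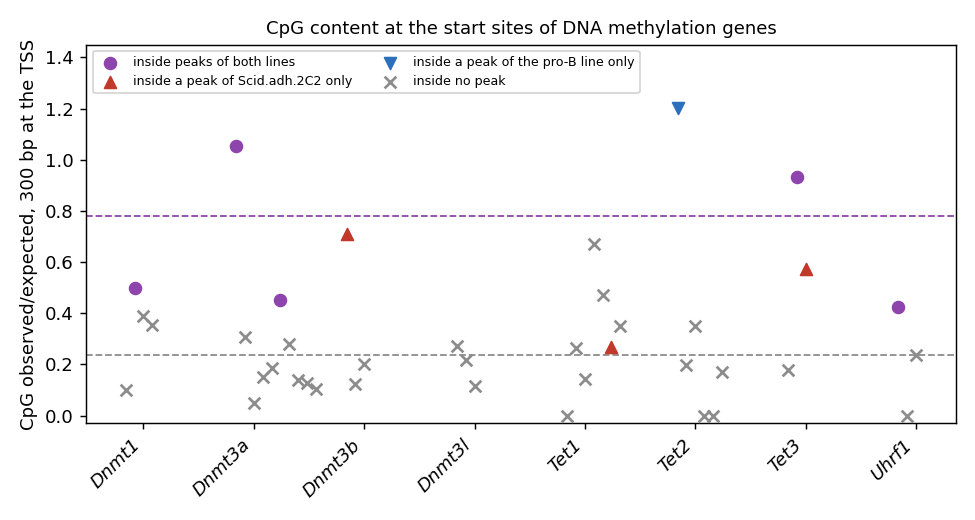
Ratio of observed to expected CpG in the 300 bp around the 39 TSS groups of the 8 genes, by gene, with the marking of each group shown by symbol and colour. Dashed lines are the medians over all protein-coding genes for groups inside peaks of both lines (0.78, purple) and inside no peak (0.24, grey), and Tet2 has the highest ratio (1.20), inside a peak of the pro-B line only. The medians were read at the most upstream TSS of each group, and the points at the longest complete coding transcript where there was one.

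Other genes of the pathway were mostly marked in both lines. Of 66 genes in 8 lists of cofactors, partners, readers and suppliers, 55 were marked in Scid.adh.2C2 and 57 in the pro-B line, and 2 had a peak in Scid.adh.2C2 alone and 4 in the pro-B line alone. Over all protein-coding genes 45.5% and 48.2% were marked, and 3.28% and 5.96% in the one line alone, so the counts for 1 line alone were close to the background. All 11 listed chromatin proteins that guide or oppose DNA methylation, most of them histone enzymes, were marked in both lines. Among them Kdm2b, which binds unmethylated CpG, had the largest difference, 40.9-fold in Scid.adh.2C2 against 17.7-fold in the pro-B line (log2 difference 1.21). Of 8 partners of maintenance methylation, 6 were marked in Scid.adh.2C2 and 7 in the pro-B line. Uhrf2, the relative of Uhrf1, was marked in the pro-B line only (16.9-fold), Dppa3, which keeps Uhrf1 from chromatin, in neither, and Cdca7l, a relative of the Hells activator Cdca7, was 31.0-fold against 8.47-fold (1.87).

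Of 7 TET partners, 5 and 4 were marked. Idh2, which makes the cosubstrate of TET enzymes in mitochondria, was marked in Scid.adh.2C2 only (36.5-fold), Cxxc4 and Wt1, proteins that bind TETs, in neither, and Dcaf1, a ubiquitin ligase receptor, was 34.9-fold against 19.9-fold (0.81). Of 11 base excision genes, 11 and 10 were marked, with the glycosylase gene Neil2 in Scid.adh.2C2 only (16.0-fold). Tdg, which excises the oxidised bases that TET enzymes make, was 34.5-fold in Scid.adh.2C2 against 16.2-fold in the pro-B line (1.09). Of 7 genes for deaminases and Gadd45 proteins, 4 and 6 were marked, and the cytidine deaminase gene Apobec3 was marked in the pro-B line only (24.0-fold). Apobec2 was marked in neither, and Gadd45a was 29.8-fold against 20.3-fold (0.55).

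Of 10 genes listed as readers of methylated DNA or relatives of such readers, 8 and 9 were marked. Zbtb4 was marked in the pro-B line only (33.0-fold), Zfp57, which guards imprints, in neither, and Zbtb38 was 17.8-fold against 24.1-fold (-0.44). Of 11 genes that supply the methyl donor, 9 were marked in each line. Mat1a and Mat2a, which make the donor itself, had no listed peak in either line. This does not show that the mark was absent there, and the widely expressed Srsf1 had no listed peak either. The folate-cycle gene Shmt2 was 15.6-fold in Scid.adh.2C2 against 36.2-fold in the pro-B line (-1.21). Its pro-B line peak had an IDR score of 733, while 18406 of that list's 19604 peaks scored 1000. The DNMT relative Trdmt1, which methylates tRNA, was 24.8-fold against 18.6-fold (0.41). Of 16 germline genes that promoter methylation keeps silent in somatic cells, 1 was marked in Scid.adh.2C2, the testis gene Brdt (20.6-fold), and 0 in the pro-B line. Of the 5 DNA methylation genes marked in both lines Tet1 had the largest difference, at percentiles 11.3 and 0.265. The pathway genes with the closest pair of percentiles were Setdb1, Nsd1 and Parp1. Setdb1 was at percentiles 6.45 and 1.93 (13.8- and 8.67-fold) and Nsd1 at 16.0 and 17.4 (18.9- and 15.7-fold). Parp1 was at 31.5 and 6.31 (23.2- and 11.9-fold), so the match was loose for Nsd1 and Parp1.

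The labels of the lines were checked against marker genes. Of 10 pro-T cell markers, 10 were marked in Scid.adh.2C2 and 4 in the pro-B line, and Cd3e, Gata3, Bcl11b and Ptcra were among the 6 marked in Scid.adh.2C2 only. Cd3d, Tcf7, Lck and Zap70 were marked in both lines. Lck had the higher fold in the pro-B line (16.8-fold against 16.0-fold), while Cd3d, Tcf7 and Zap70 had it in Scid.adh.2C2. Of 10 pro-B cell markers, 3 and 9 were marked, with Ebf1 and Pax5 among the 7 marked in the pro-B line only and Rag1, a recombinase of both lineages, in Scid.adh.2C2 only. Vpreb1 and Il7r were marked in both lines. Both had the higher fold in Scid.adh.2C2, 29.9-fold against 21.2-fold at Vpreb1 and 20.1-fold against 13.9-fold at Il7r. Markers of other cells were mostly unmarked: 1 and 0 of 7 myeloid genes (Fcgr3, 6.51-fold), 2 and 1 of 5 erythroid genes (Klf1 in both and Epor in Scid.adh.2C2), and 0 and 1 of 4 fibroblast genes (Col1a1, 10.6-fold).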

How the data were processed

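Reads of 2 H3K4me3 ChIP libraries and 1 input per line were trimmed by the authors with Trim Galore 0.6.7, mapped to mm10 (GRCm38) with Bowtie2 2.4.4, and peaks were called with MACS2 2.2.7.1 in narrow mode at q 0.05 against the input. The authors then kept the optimal set at an IDR threshold of 0.05. The deposited score, fold enrichment ratio, −log10 p-value and −log10 q-value of each peak are the authors' values, 1 list per line. The list named for P2C2 was assigned to Scid.adh.2C2 through sample titles and the dataset description of the study. Depth is unknown.

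TSSs came from GENCODE M21, and a peak overlapping 2500 bp either side of any TSS by 1 bp marked a gene. Folds and widths were set beside those of all protein-coding genes, and no test was made. The genes and lists were chosen with earlier results of these data known. Named from each list were the genes marked in 1 line only, the gene with the largest log2 difference, unmarked genes up to 5, genes sharing a peak with a member, and the 3 genes closest to the member with the largest difference. Of the genes this rule names, 1 is not reported here. Single marker genes and neighbours such as Commd7 were named after their values were seen. Alternatives were windows of 1000 or 5000 bp, peaks of at least 10-fold or with the top IDR score, and lists cut to equal length. Further ones were summits inside the window, other TSS sets, merged peaks, −log10 q, covered length and, for CpG, 1000 bp centred on the TSS. Promoter calling was checked on simulated peaks. Python 3.11.15, numpy 2.4.6, pandas 2.3.3 and matplotlib 3.10.9 were used.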

Additional observations from a re-analysis of the deposited data

How the results depend on the processing

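Between 4 and 6 of the 8 genes were marked in each line under every alternative run. Genes with 2 or more promoter peaks in at least 1 line numbered 2 in the main setting and 3 with a window of 5000 bp. With the most upstream TSS of each gene only, 4 genes were marked in each line, without Dnmt1 and Tet1, the number of genes with 2 or more promoter peaks was 0, and of the 3 genes then marked in both lines (Dnmt3a, Tet3 and Uhrf1) 1 had a higher fold in Scid.adh.2C2 and 0 a wider peak there. Under the same setting Dnmt3a was compared at its upstream promoter, and its log2 differences reversed, to -0.094 for the fold and -0.27 for the width. Tet1 was not marked in the pro-B line with a 1000 bp window, with peaks of at least 10-fold or with equal numbers of peaks, nor in either line with TSSs of protein-coding transcripts only. Dnmt1 was not marked in Scid.adh.2C2 with an IDR score of 1000. With −log10 q in place of the fold, 3 of the 5 genes were higher in Scid.adh.2C2, and with the covered length in place of the width 4 of 5 were wider there, Tet3 among them (4053 against 3687 bp). No paired analysis was possible because each list combines both replicates, and for the same reason no replicate could be left out.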

Other observations

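Listed peaks also lay outside the promoter windows. Upstream of Dnmt3a, in the promoter window of no annotated gene, Scid.adh.2C2 had a peak of 19.9-fold at chr12:3791858-3792517, higher than that at the upstream Dnmt3a promoter (17.4-fold), and the pro-B line had peaks of 15.5-fold and 8.35-fold beside it. A pro-B line peak of 6.05-fold lay in intron 3 of Dnmt3a. In intron 3 of Tet3, Scid.adh.2C2 had peaks of 9.08-fold, in the promoter window of 5430434F05Rik, and of 5.24-fold. At the end of Dnmt3l, the pro-B line had weak peaks of 6.88-fold in intron 12 and 7.17-fold at the 3′ end, and one of 8.00-fold in the window of its neighbour Icosl, the ligand of the costimulatory receptor Icos. None of these distal peaks entered the counts above.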
